A study of Mus musculus with 6 samples.

Results

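Histone lysine methyltransferases, which write methyl groups onto histone tails, and lysine demethylases, which erase them, were followed by RNA-seq in mouse embryonic stem cells (mESCs) after nuclear entry of the transcription factor Tfe3 was induced. Members were the genes whose whole symbol is Kdm with a digit and a letter, Kmt with a digit and a letter, Setd with digits or Setdb with a digit, together with 18 further named genes, among them the core subunits of the H3K4 methyltransferase complexes and the corepressor Trim28. The rule found 51 genes among the 27179 in the count table. Setd1a and Setd1b carry a letter after the digit and fall outside it, so they are given with the related genes. Of the 51 members, 49 passed the filter on low counts and were tested.

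The mESCs are pluripotent cells, kept here on gelatin in medium with serum and the cytokine LIF, and every library came from cells expressing the fusion Tfe3-ERT2. The fusion joins murine Tfe3, a factor known for activating lysosome and autophagy genes, to a receptor domain that holds it in the cytoplasm until 4-hydroxytamoxifen (4OHT) binds. There were 3 libraries of cells given 4OHT at 1 µg/mL for 48 h and 3 libraries of cells given the vehicle ethanol (EtOH). The control cells carry the same fusion, and no library of cells without it was included, so an effect of 4OHT itself and an effect of the fusion cannot be told apart. How the fusion is driven, and whether the cells are 1 clone or the libraries separate cultures, is not stated in the sources used here, and p-values here reflect nothing beyond library-to-library spread.

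Methylation of a histone lysine can mark opposite states of a gene, depending on the residue. Methyl groups on lysine 4 of histone H3 (H3K4) mark active promoters and enhancers, those on H3K36 and H3K79 mark transcribed gene bodies, and those on H3K9, H3K27 and H4K20 are associated with silent or compact chromatin. Most writers share a catalytic SET domain, and Dot1l is the exception. Most erasers share a JmjC domain that uses iron and 2-oxoglutarate, while Kdm1a and Kdm1b use a flavin. In mESCs these enzymes are known for keeping retroviral elements and lineage genes silent while leaving developmental promoters able to respond.

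Total counts were between 4648374 and 6427880 in the 4OHT libraries and between 4092877 and 4984364 in the EtOH libraries, and members took between 0.842% and 0.856% of the counts in 4OHT and between 0.859% and 0.873% in EtOH. Levels are given as CPM, counts relative to the library total after scaling. In a single library 3 counts equalled 0.467 to 0.733 CPM, the floor set by counting error alone. All 8 mESC markers were expressed, with a summed level between 4714 and 4723 CPM in 4OHT and between 4483 and 4648 CPM in EtOH, but 4 of them rose and 2 fell. Esrrb (882 ± 7.42 CPM in 4OHT and 566 ± 14.5 CPM in EtOH), Klf4 (247 ± 6.33 CPM in 4OHT and 177 ± 3.95 CPM in EtOH), Nanog and Zfp42 rose. Tdgf1 (744 ± 17.0 CPM in 4OHT and 949 ± 27.6 CPM in EtOH) and Pou5f1 (697 ± 25.8 CPM in 4OHT and 791 ± 25.4 CPM in EtOH) fell. Tfe3, whose counts pool the endogenous gene and the fusion as far as they share sequence, averaged 832 ± 4.34 CPM in 4OHT and 1038 ± 35.1 CPM in EtOH (SD, n = 3 each). All 5 tested trophectoderm markers of 7 listed rose, with a sum of the list between 881 and 901 CPM in 4OHT and between 379 and 405 CPM in EtOH, most of it Krt8 and Krt18. The 5 that rose also include the transcription factors Hand1, Gata3 and Eomes, and their log2 fold changes lay between 1.16 and 2.56. The factors Cdx2 (1.54 CPM in 4OHT and 2.25 CPM in EtOH) and Elf5 (0.0601 CPM in 4OHT and 0 in EtOH) were near or at 0 and were not tested. Of 6 primitive endoderm markers 2 were tested and neither was called (sum between 11.9 and 17.0 CPM in 4OHT and between 7.38 and 11.5 CPM in EtOH), and of 5 fibroblast markers 1 of 4 tested rose (sum between 79.5 and 97.3 CPM in 4OHT and between 48.4 and 53.4 CPM in EtOH). The part of these markers in the results below was not tested, and in bulk RNA fewer cells of a type and less RNA per cell cannot be told apart.

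Members changed in both directions and by little. Of the 49 tested, 10 rose and 9 fell in 4OHT at an adjusted p under 0.05 in edgeR's quasi-likelihood test, where 21.4% of all 12345 tested genes rose and 20.6% fell. The share of members called in either direction was 38.8%, against 42.0% of all tested genes, and so near the background. The median log2 fold change of the members was 0.01, beside −0.00 for all tested genes. The median absolute log2 fold change was 0.10 for members and 0.21 for all tested genes. Members also had a higher level, with a median of the average log2 CPM of 6.98, against 5.04 for all genes. Among the 6990 genes with an average log2 CPM from 4.5 to 8.5, which include 45 of the members, 50.04% were called and the median absolute log2 fold change was 0.17. Of those 45 members, 16 were called, a lower share than that of the genes in this window. The part of level in the smaller changes was not tested.

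No member was called with a change of 1.5-fold or more, while 12.1% of all tested genes were. A total of 40 members (81.6%) differed by less than 1.2-fold, as did 59.2% of all tested genes. In 21 members (42.9%) the 4OHT and EtOH values were fully separated, against 48.8% of all tested genes. Replicates were tight, with a median coefficient of variation of 2.77% in 4OHT and 4.06% in EtOH. Of the 30 members not called, 26 had a 95% interval of the fold change that lay within 1.2-fold in either direction, so for those a larger difference is outside the interval.

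**Figure D1:**
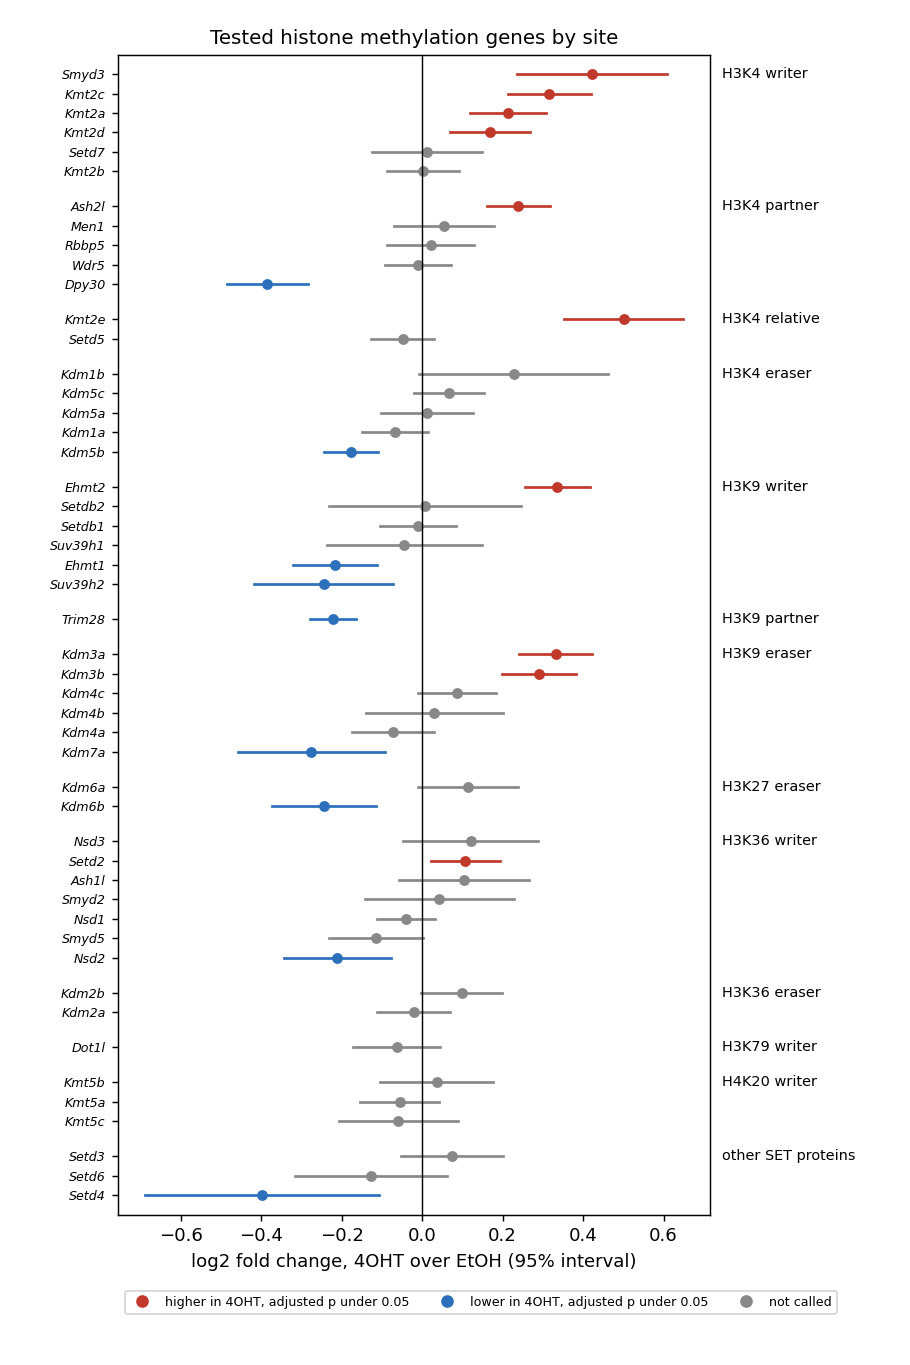
Log2 fold change (4OHT over EtOH) of the 49 tested members, grouped by histone site and role, with 95% intervals from the edgeR fit as horizontal lines. Red points rose, blue points fell and grey points were not called at an adjusted p of 0.05, and the points lie between −0.40 (Setd4) and 0.50 (Kmt2e).

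**Figure D2:**
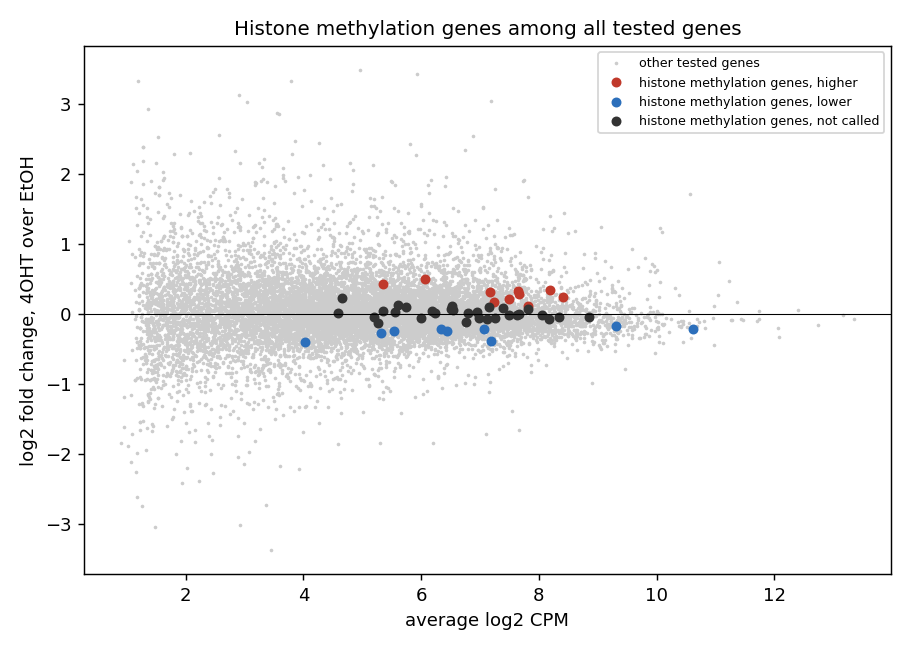
Log2 fold change (4OHT over EtOH) against average log2 CPM for all 12345 tested genes in light grey, with the members on top in red (rose), blue (fell) or dark grey (not called). Most members sit to the right of the median level of all genes, 5.04, and close to the horizontal line of no change. Setd4 (4.04), Setdb2 (4.59) and Kdm1b (4.66) sit to the left of that median.

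The H3K4 methyltransferases held the most rises. Of 6 writers of this site, 4 rose and none fell, where 21.4% of all tested genes rose. Their median log2 fold change was 0.19, and 0.08 with each library's trend on gene length removed, when 3 rose and 2 had values below 0. Kmt2c and Kmt2d, large paralogs that place H3K4 monomethylation at enhancers, both rose. Kmt2c was at 162, 149 and 166 CPM in 4OHT, against 122, 137 and 126 CPM in EtOH. The groups did not overlap (log2 fold change 0.32, standard error 0.05, edgeR adjusted p = 4.1e-08). Kmt2d was at 164, 156 and 159 CPM in 4OHT, against 150.0, 139 and 135 CPM in EtOH (log2 fold change 0.17, standard error 0.05, edgeR adjusted p = 0.0034). The lowest 4OHT library lay above the highest EtOH library, but DESeq2 did not call Kmt2d (adjusted p = 0.052).

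The other pair of large paralogs divided. Kmt2a, the Trithorax homolog also called MLL1, was at 187, 189 and 201 CPM in 4OHT, against 161, 171 and 167 CPM in EtOH (log2 fold change 0.21, standard error 0.05, edgeR adjusted p = 6.4e-05). Kmt2b, which places H3K4 trimethylation at promoters of developmental genes in mESCs, was at 206, 199 and 204 CPM in 4OHT, against 197, 204 and 207 CPM in EtOH. Its groups overlapped, and the 95% interval of its log2 fold change ran from −0.09 to 0.09 around 0.00. The ratio of Kmt2a to Kmt2b in counts per base was 0.487 ± 0.0204 in 4OHT and 0.422 ± 0.00842 in EtOH (SD, n = 3 each). Smyd3, a SET and MYND protein reported to methylate H3K4 and also non-histone proteins, was at 48.0, 49.96 and 40.5 CPM in 4OHT, against 34.6, 34.4 and 33.5 CPM in EtOH. It rose 1.34-fold (log2 fold change 0.42, standard error 0.09, edgeR adjusted p = 6.3e-05), with 1 of the 4OHT libraries closer to EtOH than the others. Setd7, an H3K4 monomethyltransferase with many non-histone substrates, averaged 75.5 CPM in 4OHT and 75.0 CPM in EtOH and was not called.

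Kmt2e, also named MLL5, had the largest rise among the tested members. It belongs to this family by sequence, binds methylated H3K4 through a PHD finger, and is not known to be an active methyltransferase. It was at 81.8, 72.5 and 78.4 CPM in 4OHT, against 51.6, 59.9 and 52.9 CPM in EtOH. The groups were well apart, and the rise was 1.41-fold (log2 fold change 0.50, standard error 0.07, edgeR adjusted p = 1.8e-09). In GENCODE, 9.31% of its exon bases lie opposite those of Srpk2, and the strand setting of the counting is not stated. Setd5, a related SET protein whose activity is disputed, was at 318 ± 5.54 CPM in 4OHT and 329 ± 8.41 CPM in EtOH and was not called. Among the 5 genes Kmt2a to Kmt2e, 4 rose and none fell.

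These 5 transcripts are long, and gene length moved with direction over the whole table. Among the 897 tested genes with a listed length of 7000 bases or more, 31.4% rose and 16.5% fell, while among the 3658 genes under 2000 bases 14.2% rose and 23.4% fell. Of the 16 members at 7000 bases or more, 6 rose and 2 fell, and of the 4 members under 2000 bases none rose and 2 fell. With each library's trend on length removed, Kmt2e (log2 fold change 0.43), Kmt2c (0.21) and Kmt2a (0.11, edgeR adjusted p = 0.048) were still higher, and Kmt2d was not called (0.05, edgeR adjusted p = 0.40).

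Of the 5 core subunits of these methyltransferases, Ash2l rose, Dpy30 fell and the other 3 were not called. Over all tested genes 21.4% rose and 20.6% fell. Wdr5, Rbbp5, Ash2l and Dpy30 form a module shared by all Kmt2 complexes, and Men1 encodes menin, which tethers Kmt2a and Kmt2b. Ash2l was at 353, 373 and 371 CPM in 4OHT, against 297, 317 and 318 CPM in EtOH, and rose 1.18-fold (log2 fold change 0.24, standard error 0.04, edgeR adjusted p = 6.4e-08). Dpy30, the smallest subunit, was at 126, 133 and 121 CPM in 4OHT, against 165, 164 and 168 CPM in EtOH. It fell by 0.39 on the log2 scale (standard error 0.05, edgeR adjusted p = 1.2e-11), which is 1.31-fold lower. Both genes had groups that did not overlap, in opposite directions. Wdr5 averaged 266 ± 6.46 CPM in 4OHT and 268 ± 8.10 CPM in EtOH, Rbbp5 averaged 124 CPM in 4OHT and 122 CPM in EtOH, and Men1 averaged 94.1 CPM in 4OHT and 90.8 CPM in EtOH.

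The ratio of Ash2l to Dpy30 in counts per base was 1.23, 1.23 and 1.35 in 4OHT libraries, against 0.794, 0.851 and 0.832 in EtOH libraries. Every 4OHT ratio lay above every EtOH ratio, and the level of the ratio depends on the deposited lengths. The ratios of gene pairs given here were chosen after their values were seen and carry no test. Summed over the 5 genes of this module with Men1, the level was 952 ± 19.9 TPM (counts per base, scaled to the same sum in each library) in 4OHT and 961 ± 14.6 TPM in EtOH, and the groups overlapped.

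**Figure D3:**
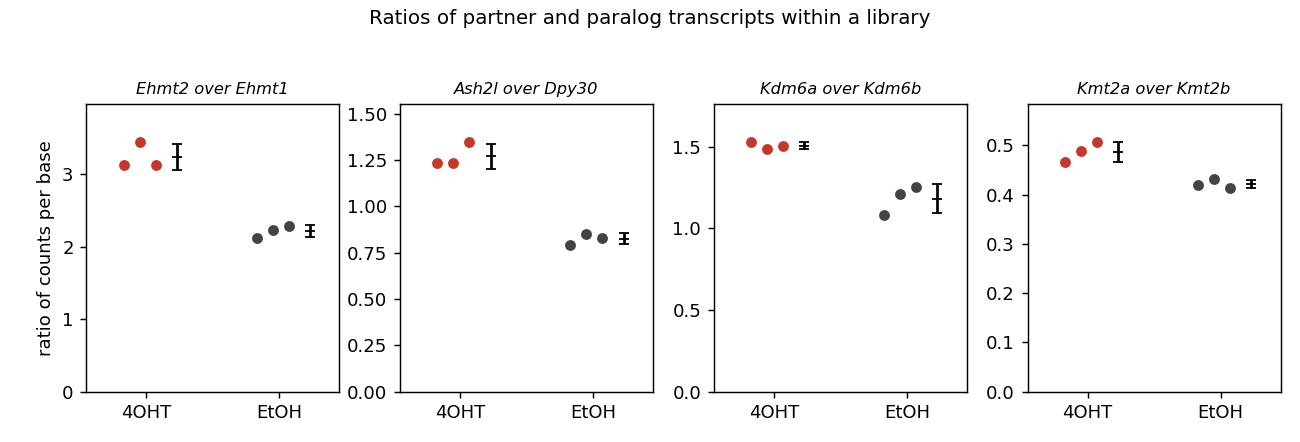
Ratio of counts per base between 2 transcripts in each library, for Ehmt2 over Ehmt1, Ash2l over Dpy30, Kdm6a over Kdm6b and Kmt2a over Kmt2b, with 4OHT libraries in red and EtOH libraries in dark grey. Bars give the mean and SD of 3 libraries, and in each panel every 4OHT library lies above every EtOH library. The ratios Kmt2c over Kmt2d and Suv39h1 over Suv39h2, which are not shown, overlapped between the groups.

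Among the H3K4 demethylases 1 of 5 tested fell and none rose, where 20.6% of all tested genes fell and 21.4% rose. Kdm5b, which removes H3K4 trimethylation and is the most abundant eraser of this site in these cells by TPM, was at 601, 594 and 603 CPM in 4OHT, against 666, 685 and 681 CPM in EtOH. It fell by 0.18 on the log2 scale (standard error 0.03, edgeR adjusted p = 3.2e-06) with no overlap. Kdm1a, the flavin enzyme LSD1, was at 279, 291 and 280.1 CPM in 4OHT, against 312, 302 and 275 CPM in EtOH. Its groups overlapped and it missed the threshold (log2 fold change −0.07, edgeR adjusted p = 0.19), though it passed without EtOH replicate 3 (−0.12, edgeR adjusted p = 0.035) and with upper quartile factors (−0.10, edgeR adjusted p = 0.039). Kdm5a and Kdm5c, paralogs of Kdm5b, averaged 111 and 229 CPM in 4OHT and 110.4 and 219 CPM in EtOH. Kdm1b, a relative of Kdm1a known from the growing oocyte, averaged 26.6 ± 2.07 CPM in 4OHT and 22.8 ± 1.97 CPM in EtOH, without overlap but also without a call (edgeR adjusted p = 0.12).

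Kdm5d, the Y-linked paralog, had 0 counts in all 6 libraries. Other genes of the Y chromosome were expressed in the same libraries: Uty averaged 27.5 CPM in 4OHT and 27.2 CPM in EtOH, Ddx3y 40.19 CPM in 4OHT and 35.98 CPM in EtOH, and Eif2s3y 65.3 CPM in 4OHT and 60.4 CPM in EtOH.

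Per base, H3K4 writers summed to 174, 171 and 174 TPM in 4OHT libraries, against 149, 160.0 and 149 TPM in EtOH libraries, without overlap. The erasers of this site summed to 553 ± 7.63 TPM in 4OHT and 575 ± 25.1 TPM in EtOH, with overlap. These sums describe the listed genes together and are not a test.

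**Figure D4:**
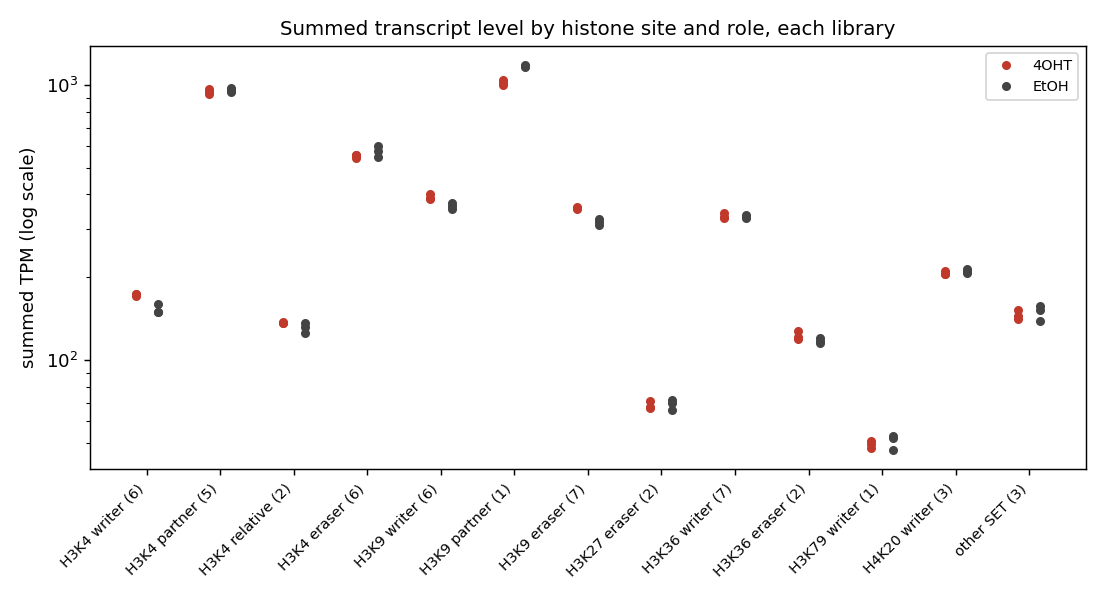
Summed TPM (log scale) of the members of each histone site and role in every library, with 4OHT libraries in red on the left and EtOH libraries in dark grey on the right, and the number of genes in parentheses. H3K4 writers and H3K9 erasers were higher in every 4OHT library, H3K9 writers likewise through Ehmt2 alone (without it 211 ± 8.70 TPM in 4OHT and 221 ± 3.46 TPM in EtOH, overlapping), and Trim28, the H3K9 partner, was lower, while the groups overlapped for the other classes.

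Of 13 tested H3K9 genes, 3 rose and 4 fell, where 21.4% of all tested genes rose and 20.6% fell. Their median absolute log2 fold change was 0.22, close to the 0.21 of all tested genes. Ehmt2 and Ehmt1 encode G9a and GLP, which work as a heterodimer to place H3K9 mono- and dimethylation, and they changed in opposite directions. Ehmt2 (chromosome 17, 34898463 to 34914073 on GRCm38, the assembly also called mm10) was at 322, 329 and 317 CPM in 4OHT, against 254, 264 and 249 CPM in EtOH. It rose 1.26-fold (log2 fold change 0.34, standard error 0.04, edgeR adjusted p = 3.1e-13), the smallest p of the members. Ehmt1 (chromosome 2, 24790769 to 24919643) was at 128, 119 and 126 CPM in 4OHT, against 149, 147 and 135 CPM in EtOH. It fell by 0.22 on the log2 scale (standard error 0.05, edgeR adjusted p = 0.00028). Neither pair of groups overlapped. The ratio of Ehmt2 to Ehmt1 in counts per base was 3.24 ± 0.181 in 4OHT and 2.21 ± 0.0828 in EtOH (SD, n = 3 each).

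Trim28 (also KAP1) is the corepressor that KRAB zinc finger proteins use to bring Setdb1 to retroviral elements, and was the most abundant member. It was at 1428, 1466 and 1463 CPM in 4OHT, against 1712, 1667 and 1702 CPM in EtOH, and fell by 0.22 on the log2 scale (standard error 0.03, edgeR adjusted p = 7.2e-12). Setdb1, the methyltransferase it recruits, was at 175, 178 and 184 CPM in 4OHT, against 180.0, 174 and 189 CPM in EtOH. Its groups overlapped, and the 95% interval of the log2 fold change ran from −0.10 to 0.08. Per base, Trim28 was 11.7 ± 0.217 times as abundant as Setdb1 in 4OHT and 13.5 ± 0.449 times in EtOH. Setdb2 averaged 23.6 CPM in 4OHT and 23.7 CPM in EtOH and was not called.

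The writers of H3K9 trimethylation at pericentric heterochromatin are Suv39h1 and Suv39h2. Suv39h2 was at 42.1, 39.1 and 45.77 CPM in 4OHT, against 56.6, 47.7 and 45.76 CPM in EtOH. It fell by 0.24 on the log2 scale (standard error 0.09, edgeR adjusted p = 0.017), but its groups overlapped by a narrow margin. The call was lost without EtOH replicate 1 (−0.14, edgeR adjusted p = 0.30), without 4OHT replicate 2 (−0.19, edgeR adjusted p = 0.10) and in DESeq2 (adjusted p = 0.15). Suv39h1 was at 34.9, 36.2 and 36.7 CPM in 4OHT, against 38.9, 34.4 and 38.1 CPM in EtOH, and was not called (95% interval of the log2 fold change −0.24 to 0.15).

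Kdm3a and Kdm3b, which remove H3K9 mono- and dimethylation, both rose. Kdm3a, also called JMJD1A, was at 231, 224 and 212 CPM in 4OHT, against 177, 169 and 184 CPM in EtOH (log2 fold change 0.33, standard error 0.05, edgeR adjusted p = 1.1e-10). Kdm3b was at 223, 220.4 and 219 CPM in 4OHT, against 168, 182 and 193 CPM in EtOH (log2 fold change 0.29, standard error 0.05, edgeR adjusted p = 1.6e-08). The groups did not overlap for either gene, and the folds were 1.26 and 1.22. An antisense gene model covers 24.6% of the exon bases of Kdm3b. The Kdm4 enzymes, which remove trimethylation from H3K9 and H3K36, were not called where tested. Kdm4c was at 166, 170.1 and 178 CPM in 4OHT, against 155, 164 and 166 CPM in EtOH (log2 fold change 0.09, edgeR adjusted p = 0.15). Kdm4a averaged 135 CPM in 4OHT and 142 CPM in EtOH, and Kdm4b 47.0 CPM in 4OHT and 46.0 CPM in EtOH. Kdm4d, known from the testis, had at most 1 count in a library and was not tested. Kdm7a, which acts on dimethylated H3K9 and H3K27, was at 35.8, 35.3 and 37.3 CPM in 4OHT, against 45.1, 43.4 and 42.8 CPM in EtOH. It fell by 0.27 on the log2 scale (standard error 0.09, edgeR adjusted p = 0.010) without overlap, but was not called without EtOH replicate 1 (edgeR adjusted p = 0.056) or in DESeq2 (adjusted p = 0.094).

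Partners and readers of H3K9 methylation that are not members were mostly lower. Of 11 tested, 9 fell and none rose, with a median log2 fold change of −0.17, where 20.6% of all tested genes fell. DESeq2 called 6 of them lower. Cbx1, Cbx3 and Cbx5 encode the HP1 proteins that bind methylated H3K9. Cbx1 averaged 179.9 ± 11.99 CPM in 4OHT and 238 ± 4.00 CPM in EtOH (1.32-fold lower, edgeR adjusted p = 3.2e-15). Cbx3 averaged 31.7 ± 3.87 CPM in 4OHT and 48.0 ± 3.59 CPM in EtOH (1.51-fold lower, edgeR adjusted p = 1.8e-08). Cbx5 averaged 599 ± 9.83 CPM in 4OHT and 694 ± 25.8 CPM in EtOH (1.16-fold lower, edgeR adjusted p = 2.3e-08). Also lower were Wiz and Zfp644, which bind the G9a and GLP dimer, and Mphosph8, Tasor and Pphln1, which form the HUSH silencing complex, with its partner Morc2a. The Tasor groups overlapped (299.99 ± 20.6 CPM in 4OHT and 322 ± 7.13 CPM in EtOH, edgeR adjusted p = 0.037). Atf7ip and Atf7ip2, partners of Setdb1, were the 2 not called. The list was drawn up with earlier results of these data known and carries no test of its own.

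The sequences before the start sites of members were searched for CACGTG, the E-box that MiT/TFE factors bind, and for its longer form TCACGTGA. Each RefSeq window on GRCm38.p6 ran from 250 bases before to 50 after a start site and was read on both strands, and 38 members had one. CACGTG was in a window of 3 of them (7.89%), against 12.2% of the 9635 tested genes with a window. TCACGTGA was in 1 member (2.63%) and in 2.29% of those genes. The 3 genes were Ehmt2, which rose, and Kdm4c and Kdm6a, which were not called. The related motif TCATGTGA was in 1 member (2.63%), Kdm5c, and in 0.913% of tested genes with a window. The stretches are shown for the positions of the E-boxes (capitals), all 5′ to 3′ on the plus strand and ending before the start site: chr17:34898224-34898473 for Ehmt2, chr4:74251769-74251848 for Kdm4c and chrX:18162515-18162574 for Kdm6a.
Ehmt2: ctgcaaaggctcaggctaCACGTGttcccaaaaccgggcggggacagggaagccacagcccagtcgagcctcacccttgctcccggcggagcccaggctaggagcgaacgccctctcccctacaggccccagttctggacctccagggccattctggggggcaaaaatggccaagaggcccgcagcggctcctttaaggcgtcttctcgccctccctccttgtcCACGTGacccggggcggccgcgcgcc
Kdm4c: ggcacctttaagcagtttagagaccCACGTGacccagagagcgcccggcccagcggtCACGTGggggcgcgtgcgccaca
Kdm6a: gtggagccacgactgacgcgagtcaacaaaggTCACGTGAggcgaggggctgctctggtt
In Ehmt2 the first bases of the E-boxes lay 232 and 26 bases before the start site, and a second Ehmt2 window held 1 more. In Kdm4c they lay 85 and 53 bases before it. In Kdm6a the capitals mark TCACGTGA, and the CACGTG inside it began 27 bases before the start site. These start sites of Kdm4c and Kdm6a lie inside the listed genes, which begin at 74242497 and 18160862. The Kdm4c window at the listed beginning, chr4:74242247-74242546, held no CACGTG. A match is a description of letters and says nothing of binding in these cells.

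H3K27 trimethylation, the Polycomb mark, is removed by Kdm6a and Kdm6b. Kdm6b (JMJD3) was at 77.7, 79.7 and 81.5 CPM in 4OHT, against 100.3, 94.0 and 88.3 CPM in EtOH, and fell by 0.24 on the log2 scale (standard error 0.07, edgeR adjusted p = 0.00093). Kdm6a (UTX) was at 94.0, 93.6 and 96.999 CPM in 4OHT, against 85.8, 89.97 and 87.6 CPM in EtOH. The Kdm6a groups did not overlap, yet the gene missed the threshold (log2 fold change 0.11, standard error 0.06, edgeR adjusted p = 0.14). The ratio of Kdm6a to Kdm6b in counts per base was 1.51 ± 0.0224 in 4OHT and 1.18 ± 0.0894 in EtOH (SD, n = 3 each). The writers of this mark are Polycomb genes and not members. Of 11 tested subunits of the complex, 5 rose and 2 fell, where 21.4% of all tested genes rose and 20.6% fell. The rises included the accessory subunits Phf19 (24.9 CPM in 4OHT and 11.7 CPM in EtOH, log2 fold change 1.09, edgeR adjusted p = 8.0e-12), Aebp2 (0.35) and Jarid2 (0.22). Eed (log2 fold change 0.23) and Suz12 (0.19) rose too, and Rbbp4 fell (−0.19). The catalytic Ezh2 also fell, at 188 ± 3.62 CPM in 4OHT and 227 ± 8.84 CPM in EtOH (1.21-fold lower, edgeR adjusted p = 5.3e-08).

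Of 7 H3K36 writers 1 rose and 1 fell, where 21.4% of all tested genes rose and 20.6% fell. Neither of the 2 erasers was called. Setd2, the enzyme of H3K36 trimethylation, was at 232, 232 and 238 CPM in 4OHT, against 224, 219 and 208 CPM in EtOH. Its groups did not overlap, and it rose by a small amount (log2 fold change 0.11, standard error 0.04, edgeR adjusted p = 0.038). That call was lost without 4OHT replicate 1 (edgeR adjusted p = 0.053), 4OHT replicate 3 (0.11), EtOH replicate 2 (0.060) or EtOH replicate 3 (0.20), with upper quartile factors (0.17), and in DESeq2 (adjusted p = 0.16). With the length trend removed the log2 fold change of Setd2 was 0.03 (edgeR adjusted p = 0.55). Nsd2, which places H3K36 dimethylation, was at 75.3, 72.5 and 76.2 CPM in 4OHT, against 81.2, 92.2 and 86.6 CPM in EtOH. It fell by 0.21 on the log2 scale (standard error 0.07, edgeR adjusted p = 0.0064), but not past the threshold without EtOH replicate 2 (edgeR adjusted p = 0.078) or in DESeq2 (adjusted p = 0.069).

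Its paralogs Nsd1 and Nsd3 averaged 456 and 49.8 CPM in 4OHT and 469 and 46.1 CPM in EtOH, and Ash1l, another H3K36 writer, averaged 54.6 CPM in 4OHT and 50.9 CPM in EtOH. None of these 3 was called, and Nsd1 passed the threshold only after the length correction (log2 fold change −0.13, edgeR adjusted p = 0.00069). Smyd2 and Smyd5, for which H3K36 is 1 of several reported substrates, had log2 fold changes of 0.04 and −0.11. Smyd5 was not called except with upper quartile factors (−0.15, edgeR adjusted p = 0.033). Kdm2b, an H3K36 demethylase that brings a Polycomb complex to CpG islands, was at 142, 148 and 147 CPM in 4OHT, against 135, 141 and 133 CPM in EtOH. Its groups did not overlap and it missed the threshold (log2 fold change 0.10, standard error 0.05, edgeR adjusted p = 0.12). Kdm2a, its paralog, averaged 195 ± 6.55 CPM in 4OHT and 199 ± 8.86 CPM in EtOH.

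No writer of H3K79 or H4K20 was called. Dot1l, the only known H3K79 methyltransferase, was at 120.2, 124 and 125 CPM in 4OHT, against 133, 117 and 137 CPM in EtOH, with a 95% interval of the log2 fold change from −0.17 to 0.04. Kmt5a, which places H4K20 monomethylation during the cell cycle, was at 153, 149.7 and 147 CPM in 4OHT, against 155, 152 and 159.9 CPM in EtOH (95% interval −0.15 to 0.04). Kmt5b and Kmt5c, which add the further methyl groups, averaged 73.3 and 62.3 CPM in 4OHT and 71.5 and 65.0 CPM in EtOH. The H4K20 writers summed to 207 ± 3.37 TPM in 4OHT and 210.4 ± 3.56 TPM in EtOH.

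The remaining members are SET proteins best known for other substrates, such as Setd3, which methylates actin, and Setd6, which methylates the NF-kB subunit RelA. Setd4 was at 16.49, 12.8 and 13.1 CPM in 4OHT, against 19.1, 16.50 and 19.7 CPM in EtOH, the lowest level in CPM of the tested members. It fell by 0.40 on the log2 scale (standard error 0.15, edgeR adjusted p = 0.021). The groups nearly met without overlapping, and the call was lost without 4OHT replicate 2 (edgeR adjusted p = 0.083), 4OHT replicate 3 (0.096), EtOH replicate 1 (0.084) or EtOH replicate 3 (0.083), and in DESeq2 (adjusted p = 0.15). Setd3 (log2 fold change 0.07) and Setd6 (−0.13) were not called.

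**Figure D5:**
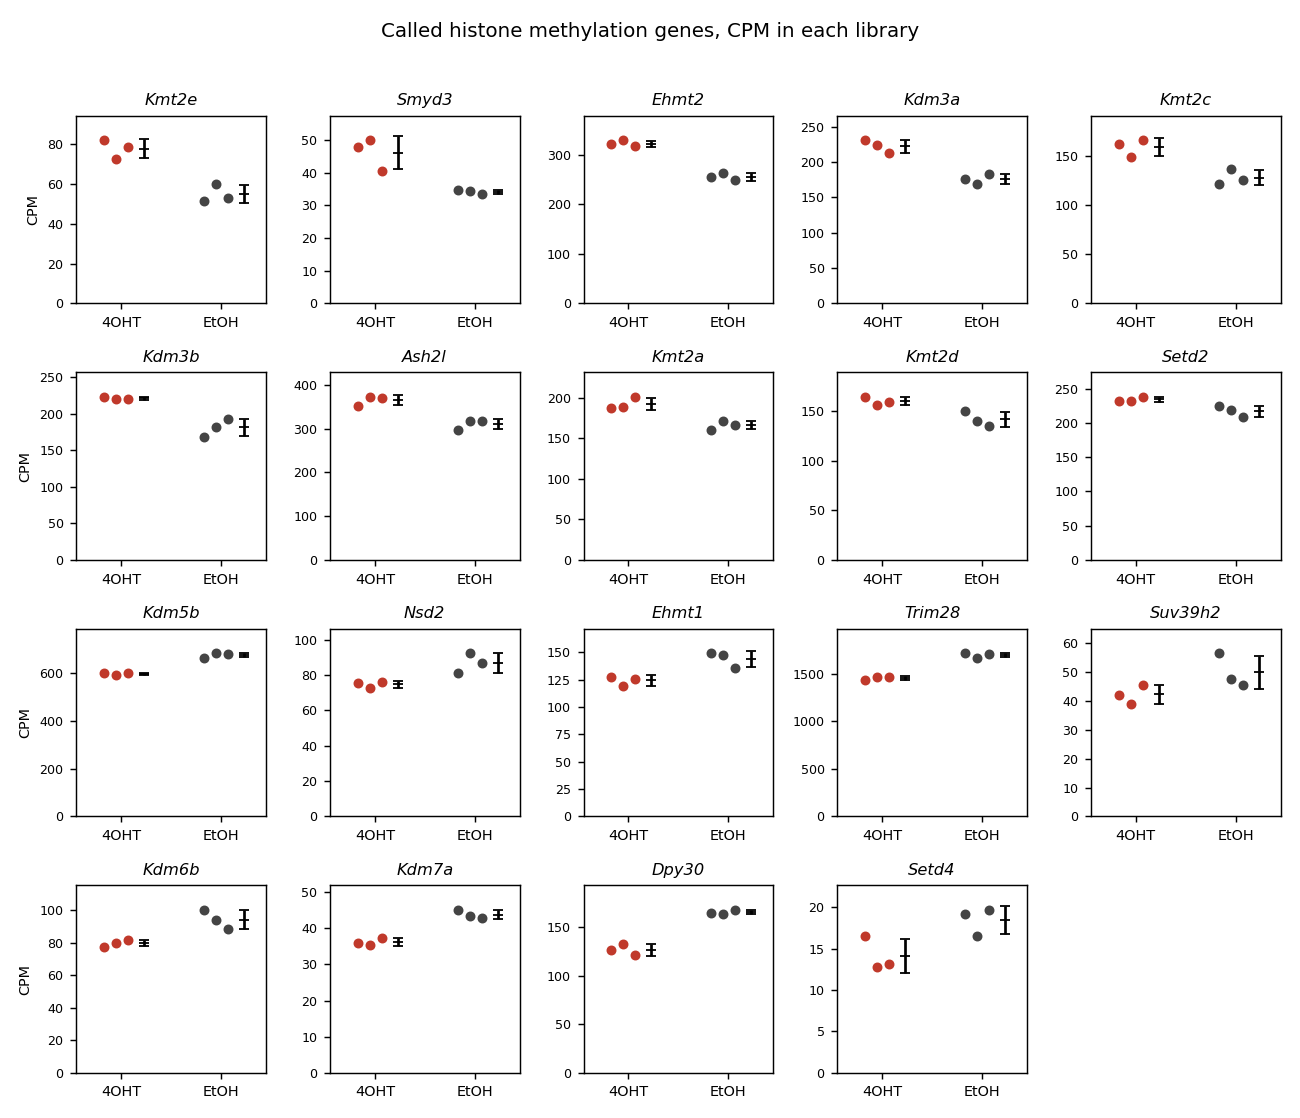
CPM in each library for the 19 called members, ordered by log2 fold change, with 4OHT libraries in red on the left and EtOH libraries in dark grey on the right of each panel. Bars give the mean and SD of 3 libraries, and the groups overlap in Suv39h2 alone.

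Levels between members were compared per base. In EtOH libraries the tested members ran from 8.89 TPM (Nsd3) to 1172 TPM (Trim28). After Trim28 the order in EtOH was Dpy30 at 335 TPM, Ash2l at 277, Kdm5b at 241, Kdm1a at 221 and Wdr5 at 207, followed by Ehmt2 at 141. In 4OHT libraries Trim28 was at 1024 TPM, Ash2l at 332, Dpy30 at 262, Kdm5b at 217, Kdm1a at 215, Wdr5 at 209 and Ehmt2 at 182. Kdm5b and Kdm1a were thus almost level in 4OHT.

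Related genes outside the rule were counted for context. Beside the counts here and in the paragraphs below, 21.4% of all tested genes rose and 20.6% fell. Of 12 tested partners of the H3K4 complexes, 2 rose and 1 fell. Setd1b rose (102 ± 4.37 CPM in 4OHT and 82.6 ± 2.04 CPM in EtOH, 1.24-fold, edgeR adjusted p = 1.2e-05), and Setd1a, the other SET1 enzyme, was not called (139 CPM in 4OHT and 144 CPM in EtOH). Ncoa6, a subunit specific to the Kmt2c and Kmt2d complexes, averaged 93.1 ± 3.99 CPM in 4OHT and 58.4 ± 4.88 CPM in EtOH, a 1.59-fold rise (edgeR adjusted p = 5.0e-17). Psip1, a reader of H3K36 methylation that also tethers menin, averaged 199.8 ± 6.69 CPM in 4OHT and 295 ± 12.5 CPM in EtOH and was 1.48-fold lower (edgeR adjusted p = 2.1e-28). Of 8 tested partners of Kdm1a none rose and 2 fell, the corepressor Rcor2 (1.21-fold lower, edgeR adjusted p = 3.3e-07) and the deacetylase Hdac2 (1.19-fold lower, edgeR adjusted p = 3.1e-06).

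Other enzymes of the same classes moved both ways. Of 8 other demethylases and hydroxylases of the JmjC type 1 rose (Phf8) and 3 fell (Riox2, Jmjd6 and Jmjd1c), with Riox2 at 36.4 ± 2.56 CPM in 4OHT and 46.8 ± 3.53 CPM in EtOH (1.28-fold lower, edgeR adjusted p = 0.00055). Phf8 was not called without 4OHT replicate 1 or EtOH replicate 2 (edgeR adjusted p = 0.13 for each) or in DESeq2 (adjusted p = 0.14), nor Jmjd6 without 4OHT replicate 3 (edgeR adjusted p = 0.067) or EtOH replicate 1 (0.054) or in DESeq2 (adjusted p = 0.087). Of 5 other methyltransferases 2 rose and none fell, Prdm2 (133 ± 4.08 CPM in 4OHT and 106 ± 5.18 CPM in EtOH, edgeR adjusted p = 2.7e-07) and Prdm16 by 2.03-fold from a low level (10.9 ± 1.22 CPM in 4OHT and 5.29 ± 1.29 CPM in EtOH, edgeR adjusted p = 1.4e-05). Of 4 partners of Dot1l none rose and 1 fell, Mllt1 (edgeR adjusted p = 0.041), a call lost without 4OHT replicate 1 (edgeR adjusted p = 0.26), EtOH replicate 1 (0.057), EtOH replicate 2 (0.11) or EtOH replicate 3 (0.085), and in DESeq2 (adjusted p = 0.19).

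S-adenosylmethionine is the methyl donor of all writers, and of 9 tested genes of its supply 2 rose (Ahcyl2 and Mtr) and 3 fell (Ahcy, Mat2a and Mat2b). Mat2a, which makes it, averaged 384 ± 8.85 CPM in 4OHT and 462 ± 23.9 CPM in EtOH (log2 fold change −0.27, edgeR adjusted p = 1.8e-10). Ahcy, which clears its inhibitory by-product, averaged 20.6 ± 0.823 CPM in 4OHT and 32.5 ± 3.70 CPM in EtOH (1.58-fold lower, edgeR adjusted p = 2.8e-07), while its relative Ahcyl2 rose 1.80-fold (59.4 ± 3.72 CPM in 4OHT and 32.9 ± 2.72 CPM in EtOH, edgeR adjusted p = 3.3e-17).

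Of 11 tested enzymes around 2-oxoglutarate, the cosubstrate of the JmjC erasers, and succinate and fumarate, which inhibit them, 5 rose (Idh2, Idh1, Idh3b, Ogdh and Sdha) and 1 fell (Fh1). Idh2 and Idh1, which make 2-oxoglutarate in mitochondria and cytosol, rose 1.92-fold and 1.67-fold. Idh2 averaged 202 ± 8.16 CPM in 4OHT and 105 ± 1.82 CPM in EtOH (edgeR adjusted p = 7.9e-46), and Idh1 averaged 187 ± 9.24 CPM in 4OHT and 112 ± 8.43 CPM in EtOH (edgeR adjusted p = 3.6e-32). Fh1, which consumes fumarate, averaged 108 ± 5.23 CPM in 4OHT and 137 ± 3.63 CPM in EtOH (1.27-fold lower, edgeR adjusted p = 1.4e-08). No metabolite and no histone mark was measured in these libraries.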

How the data were processed

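RNA of 6 libraries was made with a stranded mRNA kit from 500 ng of total RNA, per the labels. The authors deposited raw counts per gene with a gene length, and the submitters' processing notes name fastp, STAR, featureCounts and the build mm10. The sources used here give no versions, annotation or strand setting. Of the 51 members, 19 share exon bases with another GENCODE vM21 gene model, 18 of them antisense and 2 in sense.

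Genes were kept by filterByExpr (minimum count 10, total 15), scaled with TMM factors and compared with edgeR 4.0.16 (robust quasi-likelihood fit, R 4.3.3). The p-values were adjusted by Benjamini-Hochberg across the 12345 genes tested, and 0.05 was the threshold. Fold changes are unshrunk, 4OHT over EtOH. SE is the absolute log2 fold change over the square root of F. CPM uses TMM-scaled totals, and TPM uses the deposited length. In simulated data, 50 genes above a minimum total count were changed at each fold, and all genes shared the same dispersion (0.0013). The steps recovered 58% of genes changed 1.25-fold and 90% changed 1.5-fold, with 7 false calls of 181. In the real data 42.0% of tested genes were called, so these shares may not carry over to them.

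Members, lists and tests were chosen with earlier results of these data known. Every member may be named, and values in every library were set for 28 by rank of p, by size and by role. Of each related list up to 3 called genes were set to be named, and the other related genes named, Setd1a and Ezh2 among them, were added after their values were seen. Alternatives were DESeq2 1.42.0, its size factors, upper quartile factors, other filters, a replicate block, leaving out each library, an adjusted p under 0.01, a minimum of 1.5-fold and, added after seeing the data, offsets from a trend on gene length. Every pair of replicates differed by more than counting error. Promoter windows came from RefSeq. Tables and plots used Python 3.11.15, pandas 2.3.3 and matplotlib 3.10.9. A few related genes are not reported here and were left out of the lists and their counts.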

Additional observations from a re-analysis of the deposited data

How the results depend on the processing

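Of the 19 calls among members, 13 held under all 14 alternatives other than the minimum of 1.5-fold, and no called member changed direction in any of them. The other 6 were Setd2, Setd4, Suv39h2, Kdm7a, Nsd2 and Kmt2d. DESeq2 called 8 members higher and 5 lower, and 1830 of all genes higher and 1623 lower, against 2643 and 2546 in the reported fit. At an adjusted p under 0.01, 7 H3K9 partners were lower. At a minimum of 1.5-fold 0 members were called in either direction, 1 H3K9 partner was lower, and 968 genes were higher and 530 lower. Leaving out 1 library at a time gave 9 to 10 higher and 6 to 9 lower members, and 7 to 8 lower H3K9 partners. Over all tested genes it gave 2306 to 2544 higher and 2129 to 2407 lower. With the length trend removed 8 members were higher and 12 lower, with Setd5 (−0.11) and Kdm4a (−0.12) newly lower. Upper quartile factors gave 2319 genes higher and 2958 lower, so that 43.9% of calls were higher, against 50.9% in the reported fit. No pairing by replicate number was seen, since the deviations of same-numbered libraries correlated at −0.0226, −0.0161 and −0.0170. Values near 0 do not show whether same-numbered libraries shared a culture. The replicate block gave 10 higher and 9 lower members, as without it. Members near 0 changed sign, and all stayed uncalled. Log2 fold changes turned negative with DESeq2 size factors for Kmt2b (−0.0017), in DESeq2 for Setdb2 (−0.0023) and with the replicate block for Setdb2 (−0.0096). With upper quartile factors they did so for Rbbp5 (−0.012), Kdm5a (−0.023), Setd7 (−0.022), Kmt2b (−0.032), Kdm4b (−0.0041), Setdb2 (−0.027). With the length trend removed they did so for Rbbp5 (−0.00035), Kdm5a (−0.075), Setd7 (−0.056), Kmt2b (−0.072), Kdm4b (−0.0096), Setdb2 (−0.0054), Kmt5b (−0.041). Leaving out 1 library gave ranges across 0 for Kdm2a (−0.049 to 0.014), Kdm5a (−0.011 to 0.045), Kmt2b (−0.020 to 0.018), Kmt5b (−0.022 to 0.091), Setd7 (−0.0091 to 0.054), Setdb1 (−0.037 to 0.020), Setdb2 (−0.076 to 0.062), Smyd2 (−0.059 to 0.14), Wdr5 (−0.031 to 0.014). The cause was not tested.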
